A study of Mus musculus with 2 samples.

Results

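Macrophages and dendritic cells are told apart in part by the transcription factors that direct their development. Maf, Spi1, Irf8, Irf4, Cebpb, Batf3, Zbtb46, Tcf4 and Id2 are 9 of these lineage factors, and they were matched by symbol among 27998 genes measured in single leukocytes of a mouse tumor. They were described over 10 monocyte, macrophage and dendritic states and 2 libraries. The states were set by UMIs (distinct RNA molecules) of surface or secreted marker genes, so no factor was used to place a cell.

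As background, Spi1 encodes PU.1, an ETS-family factor needed across the myeloid lineages, and Cebpb encodes a basic leucine zipper factor of monocytes and granulocytes. Irf8 with Batf3 directs the cross-presenting XCR1 dendritic cells (DCs), Irf4 acts in the other conventional DCs, and Zbtb46 marks the conventional lineage. Tcf4 encodes the E protein E2-2 of plasmacytoid DCs (pDCs), which Id2, an inhibitor of E proteins, opposes, while Maf is a large MAF factor of tissue macrophages.

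CD45+ cells, that is leukocytes, were sorted from subcutaneous tumors of the Lewis lung carcinoma line (LLC) 14 days after implantation into C57/BL6 mice, which were 8 weeks old at implantation per the design text and are labelled 10 weeks. Control mice were miR-21 fl/fl, with loxP sites around the microRNA gene that the other genotype carries too, and in LysMCre;miR-21 fl/fl mice Cre from the lysozyme M locus deletes miR-21 in the myeloid cells that use that locus. Each genotype gave 1 library of 3 pooled mice, so no p-value is given, the animals cannot be told apart, and every 95% interval covers counting error only. The titles wt and cko are contradicted by the source descriptions, and the protocol names a gate of F4/80+ macrophages where the design names CD45+ cells, so "wt" and "cko" below mean the libraries so labelled.

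Lyz2, the gene that carries the Cre, was at 15721 CPM (UMIs of a gene per 1000000 UMIs) in wt macrophages and 6959 CPM in cko macrophages, which follows the titles. The wt library held 2449 cells with a median of 8359 UMIs and the cko library 2718 cells with a median of 8247 UMIs. After filtering, 5149 cells remained, and 5 barcodes occurred in both libraries. The gates placed 3586 cells in the states, 507 in a lymphoid and 188 in a granulocytic group kept for comparison, and left 868 outside. Lymphoid cells held the complement genes C1qa, C1qb and C1qc at 10.0% (wt) and 8.73% (cko) of the macrophage level, which sizes free RNA and mixed droplets together. Of marker genes that no gate used, 5 of 5 (wt) and 4 of 5 (cko) were highest in their own state for XCR1 DCs, CCR7 DCs and pDCs alike, 5 of 6 for macrophages, 4 of 5 for classical monocytes and 2 of 5 for the ACE gate. Cells of the ACE gate, meant for nonclassical monocytes, held the nonclassical marker list at 541 (wt) and 518 (cko) CPM, against 119 and 126 CPM in classical monocytes. They also held the classical marker list at 13601 (wt) and 12451 (cko) CPM, against 11051 and 12953 CPM in classical monocytes, so they are called by their gate.

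Dendritic states were small, with 19 (wt) and 15 (cko) XCR1 or CLEC9A DCs, 14 and 29 CCR7 DCs and 18 and 20 pDCs. The CD209A gate found 3 and 2 cells, too few to describe a state. Monocytes were the ACE gate with 232 (wt) and 251 (cko) cells and C1q-low, Ly6c2-positive classical monocytes with 536 and 501. Cells with both C1q and Ly6c2 were called transitional and numbered 272 and 238. Macrophages, C1q-high and Ly6c2-low, fell into a state with VCAM1, CCL8 or FOLR2 (97 and 106 cells), one with CD300E or CLEC4B1 (100 and 197) and the rest (410 and 526).

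The plot of levels by state gives all 9 genes. Values are CPM over the summed UMIs of a state, a 3′ end measure in which a transcript counts once whatever its length.

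**Figure D1:**
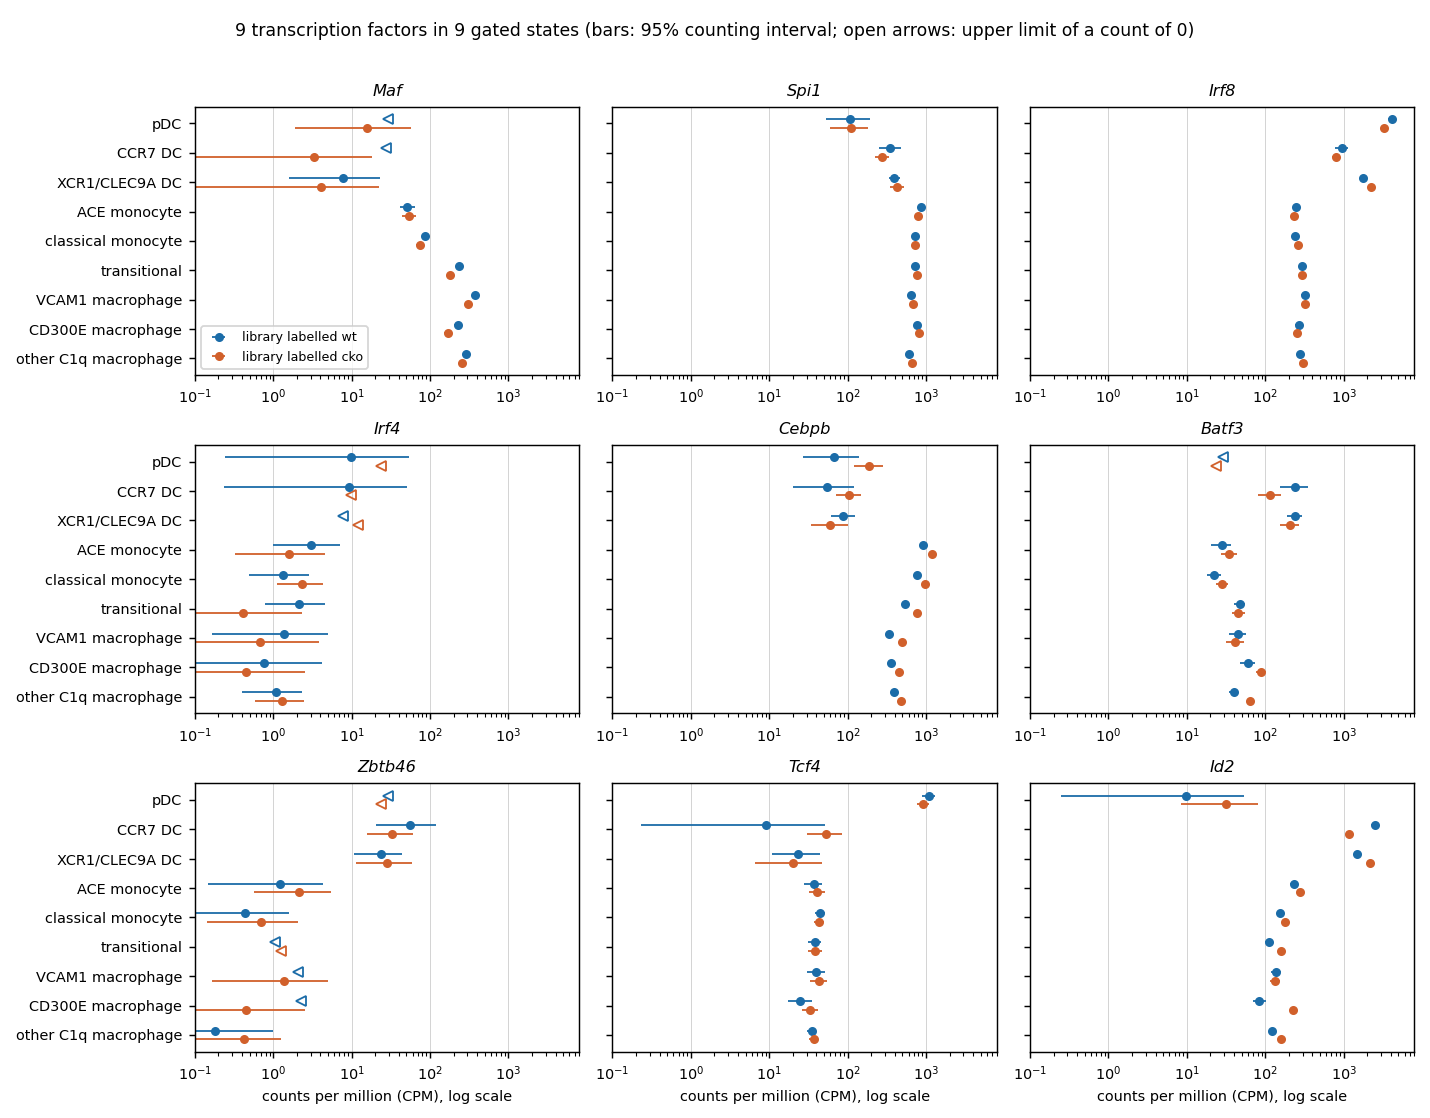
Levels of the 9 factors (CPM, log axis) in 9 gated states, blue for the library labelled wt and orange for the library labelled cko. Bars are 95% counting intervals, and open arrows mark the upper limit that a count of 0 allows. Tcf4 stood at 1079 and 925 CPM in pDCs and Id2 at 9.72 and 31.4 CPM there, while Spi1 ran from 601 to 867 CPM over the 6 monocyte and macrophage states.

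XCR1 DCs carried the known factors of their lineage, with less Maf and Cebpb than monocytes. Irf8, Batf3, Zbtb46 and Id2 were higher and Maf and Cebpb lower than in classical monocytes by at least 2-fold in both libraries, the rule for a call here. That is 6 of the 8 factors with at least 20 UMIs in this comparison, while 16.5% of 9595 genes were called the same way. The median log2 difference over well counted genes (at least 1000 UMIs) was −0.16 (wt) and −0.23 (cko), so the scale itself moved little. Irf4, the factor not compared, had no UMI in 34 XCR1 DCs. A count of 0 there allows up to 7.82 (wt) and 12.1 (cko) CPM.

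Irf8 (ENSMUSG00000041515, chromosome 8, 120736358 to 120756694, plus strand, GRCm38) reached 1783 CPM in wt and 2246 CPM in cko XCR1 DCs, from 684 and 557 UMIs. Classical monocytes held 241 and 259 CPM, a log2 difference of 2.89 (interval 2.75 to 3.03) and 3.12 (2.97 to 3.27). Its level in pDCs was higher still, at 4120 CPM (wt, 3737 to 4531) and 3284 CPM (cko, 2977 to 3614). CCR7 DCs held 950 and 803 CPM. The 6 monocyte and macrophage states all lay between 234 and 327 CPM, and neighbours among them were not separated by their intervals in both libraries. Leaving out the 5 cells of the CD209A gate, Irf8 was ordered pDC, XCR1 DC, CCR7 DC and then all other states. Among those, VCAM1 macrophages (317 and 327 CPM) and classical monocytes (241 and 259 CPM), which are not neighbours in the order, had intervals apart in both libraries.

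Batf3 (ENSMUSG00000026630, chromosome 1, 191097847 to 191108945), whose product pairs with IRF8, stood at 237 (wt) and 206 (cko) CPM in XCR1 DCs, from 91 and 51 UMIs. In classical monocytes it was at 22.3 and 28.5 CPM, which gave log2 differences of 3.41 and 2.85. CCR7 DCs held 240 and 115 CPM. In pDCs no Batf3 UMI was counted in either library, which allows up to 29.2 and 23.5 CPM. Against the other dendritic states this was 7.68-fold (wt) and 6.40-fold (cko) lower with the floor of 3 counts set in each library. The interval ends nearest to no difference were log2 −2.62 and −2.35.

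Zbtb46 (ENSMUSG00000027583, chromosome 2, 181387762 to 181459426) was a low transcript, counted mainly in the conventional DC states. XCR1 DCs gave 9 and 7 UMIs (23.5 and 28.2 CPM) and CCR7 DCs 6 and 10 UMIs (55.3 and 32.9 CPM). No monocyte or macrophage state exceeded 2.11 CPM, and pDCs gave no Zbtb46 UMI. A count of 0 in pDCs allows up to 29.2 (wt) and 23.5 (cko) CPM, so a difference from the other dendritic states, at 28.7 and 31.5 CPM, was not detectable at this depth. Against classical monocytes, which gave 2 and 3 UMIs, the log2 difference of XCR1 DCs was 5.73 (interval 3.46 to 8.98) in wt and 5.33 (3.20 to 7.92) in cko. The order of the CCR7 and XCR1 states was not resolved, since their intervals overlapped in both libraries.

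Id2 (ENSMUSG00000020644, chromosome 12, 25093799 to 25097140, minus strand) was highest in the conventional DCs. It stood at 2517 (wt) and 1178 (cko) CPM in CCR7 DCs and at 1463 and 2141 CPM in XCR1 DCs, so the order of these states turned between the libraries. Over the monocyte and macrophage states it ranged from 84.6 to 276 CPM. In pDCs it was nearly missing, with 1 UMI in 18 wt cells and 4 UMIs, all in 1 cell, in 20 cko cells.

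Maf (ENSMUSG00000055435, chromosome 8, 115682942 to 115707794) and Cebpb were the factors called lower in XCR1 DCs. Spi1 did not reach 2-fold, at 394 and 427 CPM in XCR1 DCs against 726 and 723 CPM in classical monocytes, log2 differences of −0.88 (interval −1.13 to −0.65) and −0.76 (−1.05 to −0.48). XCR1 DCs gave 3 and 1 Maf UMIs, or 7.82 and 4.03 CPM, against 87.5 and 74.5 CPM in classical monocytes. The log2 difference was −3.48 (interval −5.77 to −1.93) in wt and −4.21 (−9.52 to −1.72) in cko. With cells thinned to 3000 UMIs the mean log2 difference was −1.28 and the call was lost. Cebpb (ENSMUSG00000056501, chromosome 2, 167688915 to 167690418) was at 88.6 and 60.5 CPM in XCR1 DCs against 759 and 965 CPM in classical monocytes, log2 differences of −3.10 and −4.00. In cko XCR1 DCs 1 cell held 60.0% of the 15 Cebpb UMIs.

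Irf8 and Cebpb were thus opposed between XCR1 DCs and monocytes, and the sequences just before their starts are shown for that reason. Both are RefSeq promoters (GRCm38.p6, plus strand, 250 bases that end 1 base before the annotated start, which is also the GENCODE gene start). Capitals would mark letters of the motifs searched on both strands, which were ETS GGAAGT, IRF GAAANNGAA, C/EBP TTGCNNAA, AP-1 TGANTCA and E-box CAGNTG. Neither of the windows shown holds any of them. A further RefSeq window of Irf8, inside the gene at chr8:120738389-120738638 and not shown, holds 1 E-box match, CAGGTG.
Irf8, chr8:120736108-120736357: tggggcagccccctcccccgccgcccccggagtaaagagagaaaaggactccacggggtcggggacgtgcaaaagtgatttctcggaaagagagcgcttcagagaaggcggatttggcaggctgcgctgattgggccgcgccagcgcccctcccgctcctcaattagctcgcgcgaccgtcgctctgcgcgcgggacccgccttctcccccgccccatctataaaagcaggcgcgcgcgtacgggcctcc
Cebpb, chr2:167688665-167688914: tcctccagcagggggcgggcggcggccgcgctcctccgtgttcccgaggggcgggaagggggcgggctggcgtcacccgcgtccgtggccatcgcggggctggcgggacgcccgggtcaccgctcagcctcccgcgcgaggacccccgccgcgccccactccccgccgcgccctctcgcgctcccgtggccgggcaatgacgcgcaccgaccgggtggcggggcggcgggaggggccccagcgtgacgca

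The Cebpb window is 81.6% G and C and the Irf8 window 67.2%, against a median of 52.4% over 32851 mouse promoters of the same length. Among all promoters 19.7% hold the ETS letters, 7.13% the IRF letters, 9.56% the C/EBP letters, 6.75% the AP-1 letters and 44.8% the E-box letters. A missing match says only that these letters are not in this window. Windows were used for 6 of the 9 factors.

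CCR7 DCs, the mature migratory state, were next set against XCR1 DCs. None of the 7 factors compared was called, while 21.3% of 5032 genes were. Irf8 came nearest, with log2 differences of −0.91 (wt, interval −1.22 to −0.61) and −1.48 (cko, −1.71 to −1.26). With the C1q threshold halved Irf8 was called. Among other regulators, Relb, an NF-kappaB subunit of mature DCs, was at 710 (wt) and 576 (cko) CPM in CCR7 DCs against 15.6 and 40.3 CPM in XCR1 DCs. Nfil3 was at 203 and 151 CPM against 26.1 and 20.2 CPM. Of the 8 other dendritic regulators compared, 5 were higher (Nfil3, Relb, Rel, Zbtb18 and Zeb1) and 1 lower (Bcl11a), with a median log2 difference of 2.73 against −0.23 over all genes.

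In the cko library 2 of the 29 CCR7 DCs held 100418 of the state's 303966 UMIs and keratin transcripts of epithelial or tumor cells, with Krt8 at 259 CPM and Krt18 at 309 CPM. Without those 2 cells, Id2 was at 1754 CPM, Batf3 at 172 CPM and Irf8 at 1194 CPM in cko CCR7 DCs. The count of called factors stayed at 0.

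In pDCs, compared with the other dendritic states pooled, Irf8 and Tcf4 were higher and Spi1, Batf3 and Id2 lower, 5 of 7 factors, against 17.7% of 5989 genes. The Irf8 call was lost with dendritic gates at 3 UMIs and without the deepest 2% of cells. In cko the other dendritic states include the 2 keratin-positive cells, with 100418 of 571616 UMIs. Irf8 in cko CCR7 DCs was 244 UMIs with them and 243 without. The cko Irf8 difference is therefore smaller without these cells, and whether the call holds then was not tested. Tcf4 (ENSMUSG00000053477) was at 1079 CPM (wt, interval 887 to 1299) and 925 CPM (cko, 766 to 1108), from 111 and 118 UMIs, and every pDC held at least 1 of them. The other dendritic states held 21.0 and 49.0 CPM, log2 differences of 5.68 and 4.24. In the monocyte and macrophage states Tcf4 lay between 24.9 and 44.4 CPM, with no order that the intervals separate in both libraries, and lymphoid cells held 25.2 and 19.5 CPM. Id2 mirrored it, with 9.72 and 31.4 CPM in pDCs against 1611 and 1587 CPM, a log2 difference of −7.37 (wt, interval −12.7 to −4.89) and −5.66 (cko, −7.54 to −4.30).

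Spi1 in pDCs was at 107 (wt) and 110 (cko) CPM, below the 385 and 346 CPM of the other dendritic states. The lymphoid group had a like level, 122 and 118 CPM. The log2 difference for Irf8 was 1.45 in wt and 1.15 in cko. Cebpb was not called and was at 68.0 and 188 CPM, with 70.8% of the cko UMIs in 1 cell. The pDC gate also held the lymphoid marker list at 447 and 219 CPM, mostly from Cd4 (282 and 125 CPM), while Lck had 0 and 1 UMI.

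Relatives of the 9 factors were read beside the same 17.7% of all genes. None of 6 other IRF genes, 3 C/EBP genes and 2 MAF genes was called in pDCs, and 1 of 7 AP-1 genes (Junb) was lower. Of 7 other ETS genes compared, Spib, Ets1, Fli1 and Elf1 were higher and Etv3 lower, with a median log2 difference of 1.44 against 0.09 over all genes. Elf1 was at 253 and 165 CPM against 68.9 and 40.2 CPM. Among E proteins and inhibitors, Tcf12, an E protein like Tcf4, was at 107 and 102 CPM against 5.74 and 10.5 CPM. Id3, an inhibitor like Id2, took the opposite direction to Id2, at 126 (wt) and 47.0 (cko) CPM against 1.91 and 12.2 CPM. The pDCs held 102916 (wt) and 127590 (cko) UMIs of all genes, so these Id3 levels rest on few UMIs. Of 9 other dendritic regulators 3 were higher (Bcl11a, Runx2 and Ikzf1) and 5 lower (Nfil3, Relb, Runx3, Zbtb18 and Zeb1). Of 8 other monocyte and macrophage regulators Zeb2 was higher and Klf6 and Bhlhe40 lower. Zeb2 was at 301 and 235 CPM in pDCs against 51.6 and 47.2 CPM, and it was lower in XCR1 DCs than in classical monocytes, 36.5 and 4.03 CPM against 406 and 379 CPM.

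Irf4 (ENSMUSG00000021356, chromosome 13, 30749226 to 30766976) was too rare for most comparisons. Over all gated cells it gave 28 (wt) and 25 (cko) UMIs, 1.56 and 1.25 CPM. Its highest levels in the gated states, 9.72 CPM in wt pDCs and 9.22 CPM in wt CCR7 DCs, were 1 UMI each. Lymphoid cells held 11.7 and 5.82 CPM.

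Because the CD209A gate found 5 cells, its 1 call among 7 factors (Cebpb lower, from 2 and 1 UMIs), against 6.35% of genes, describes those cells only. A pair of gates chosen after seeing the data drew on the cells left outside and also on the 5 cells of the CD209A gate. An FLT3 gate held 12 (wt) and 30 (cko) cells and called the same 6 of 8 factors as the XCR1 state against classical monocytes, in the same directions, where 10.1% of genes were called. Zbtb46 was at 50.1 and 38.4 CPM, Batf3 at 107 and 133 CPM and Irf8 at 737 and 639 CPM. The XCR1 state had more Irf8 and Batf3, while Spi1 stood at 515 and 667 CPM in FLT3 cells and 394 and 427 CPM in XCR1 DCs. The FLT3 and XCR1 cells were not compared by the 2-fold rule. A gate on Mgl2 or Cd209a held 28 and 20 cells and called Irf4 and Id2 higher and Cebpb lower, 3 of 8, against 7.43% of genes. Cebpb was at 130 and 321 CPM there, and Maf, not called, at 85.9 and 30.6 CPM. Irf4 there rested on 3 and 4 UMIs, 9.54 and 20.4 CPM, and Irf8 was at 204 and 158 CPM, next to 241 and 259 CPM in classical monocytes.

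From monocytes to macrophages Maf was called higher and Cebpb lower. Pooling the 3 macrophage states, Maf was at 297 (wt) and 244 (cko) CPM against 87.5 and 74.5 CPM in classical monocytes, a log2 difference of 1.76 (interval 1.61 to 1.92) and 1.71 (1.55 to 1.89). Cebpb was at 374 and 480 CPM against 759 and 965 CPM, 2.03-fold and 2.01-fold lower, which is at the threshold. These were 2 calls among 8 factors where 12.4% of 11067 genes were called, so the count is not far from the background. Batf3 was under 2-fold in wt only, at 43.7 and 65.7 CPM against 22.3 and 28.5 CPM, a log2 difference of 0.97 and 1.21. Spi1 (−0.20 and −0.05), Irf8 (0.25 and 0.21) and Id2 (−0.40 and −0.07) differed by far less than 2-fold.

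The Cebpb call was lost at −0.85 when each cell had equal weight, at −0.86 when every cell was thinned to 3000 UMIs and at −0.93 to −0.99 under other gate or depth limits, as the mean log2 difference of both libraries. Of 14 other monocyte and macrophage regulators compared, Nr1h3 and Pparg were higher in macrophages and none lower, a share near the 12.4% of all genes. Nr1h3, which encodes the oxysterol receptor LXRα, was at 139 (wt) and 156 (cko) CPM against 19.9 and 23.8 CPM. Of 10 other dendritic regulators compared, none was higher and 2 were lower (Nfil3 and Bcl11a), with Nfil3 at 35.5 and 44.0 CPM against 110 and 123 CPM.

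Within C1q-positive cells Maf rose and Cebpb fell with the amount of C1q. Transitional cells and macrophages were divided into 4 classes of equal cell number over both libraries by C1q, with classical monocytes as the class below them. Maf was at 87.5, 192, 277, 290 and 331 CPM from the lowest to the highest class in wt and at 74.5, 142, 230, 254 and 262 CPM in cko. Cebpb went down through every class, at 759, 659, 494, 339 and 270 CPM in wt and at 965, 813, 682, 446 and 374 CPM in cko. Batf3 was at 22.3 CPM in the lowest and 51.4 CPM in the highest class in wt, and at 28.5 and 70.4 CPM in cko. Id2 was highest in the first C1q-positive class (161 and 238 CPM) and lowest in the last (88.2 and 120 CPM). Spi1 lay between 627 and 762 CPM. Irf8 was at 241 CPM in the lowest and 296 CPM in the highest class in wt and at 259 and 328 CPM in cko, with intervals apart in both libraries.

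Depth moved with these classes, from a median of 8147 UMIs in the lowest to 16494 in the highest class in wt cells and from 8108 to 14020 in cko cells, and its part in the result was not tested. The median C1q level of the first C1q-positive class was 18.7 per 10000 UMIs in wt and 22.9 in cko, and that of the highest class was 192 in both. In all 5 classes the cko level of Cebpb lay above the wt level, with intervals that did not overlap. The cko level of Maf lay below the wt level in all 5, with intervals apart in the 4 C1q-positive ones.

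**Figure D2:**
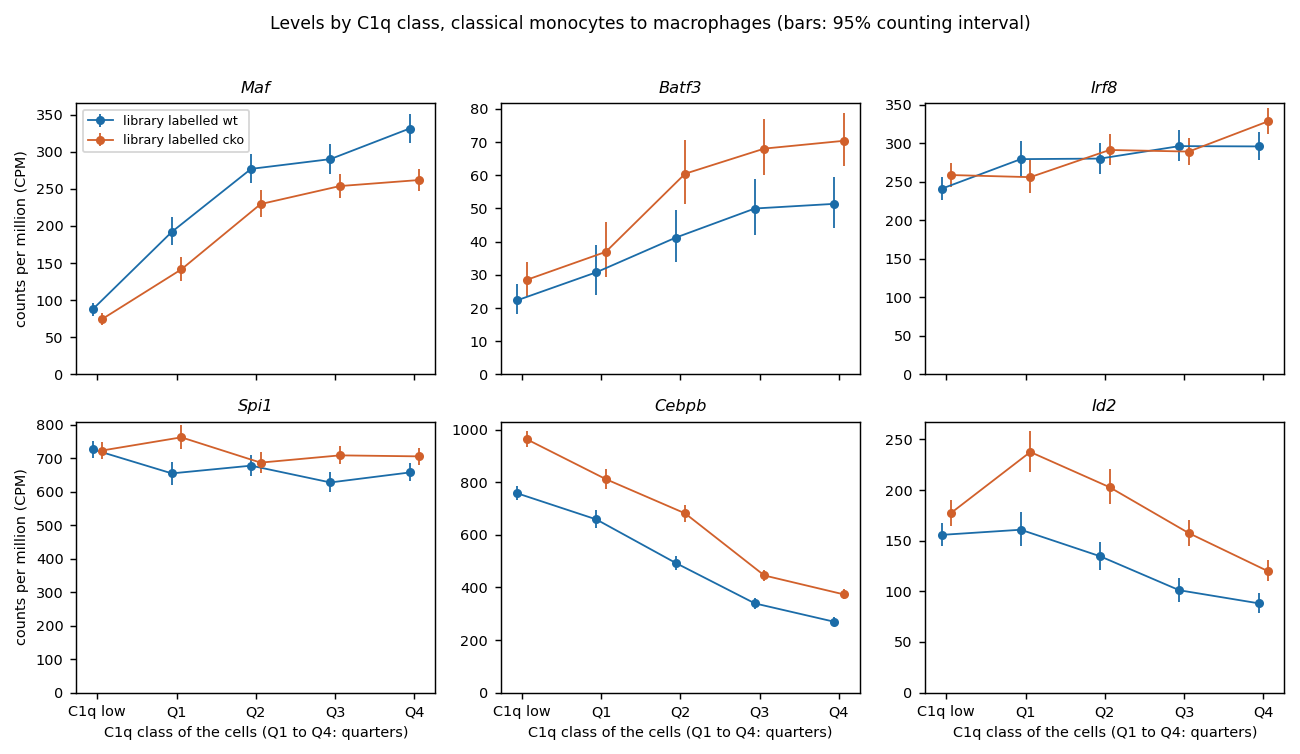
Levels (CPM) of 6 factors in classical monocytes (C1q low) and in C1q-positive cells split into 4 classes by C1q level (Q1 to Q4), with 95% counting intervals, blue for the library labelled wt and orange for cko. In wt Maf went from 87.5 to 331 CPM and Cebpb from 759 to 270 CPM, and the Cebpb line of cko lay above that of wt in every class.

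Between the VCAM1 and CD300E macrophages none of 7 factors was called, with 3.57% of 9299 genes called, so that count is near the background. Maf was at 379 (wt) and 304 (cko) CPM in VCAM1 macrophages and 224 and 169 CPM in CD300E macrophages, log2 differences of 0.76 and 0.85 with both intervals above 0. Batf3 pointed the other way, at 44.4 and 41.8 CPM against 59.7 and 88.0 CPM. Id2 changed sign between the libraries, with a log2 difference of 0.71 in wt and −0.75 in cko. Id3, the other inhibitor, was lower in VCAM1 macrophages in both (log2 −2.47 and −1.51), as were Nr4a1 and Pparg.

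Maf was therefore ordered VCAM1 macrophages, other C1q macrophages, then transitional cells and CD300E macrophages, whose intervals overlapped, then classical monocytes and the ACE gate. Cebpb ran nearly the reverse way, with 914 and 1183 CPM in the ACE gate, then classical monocytes, transitional cells and the 3 macrophage states, at 336 to 501 CPM without a resolved order. The ACE gate itself gave 0 calls among 8 factors against classical monocytes, where 2.32% of genes were called. Id2 was at 232 and 276 CPM there, 1.49-fold and 1.56-fold the classical level, and Maf at 51.4 and 53.8 CPM. This gate held 1 cko cell of 159109 UMIs, and the tumor marker list there was at 1.81 CPM in wt and 193 CPM in cko.

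Genes with the most similar profiles were sought over 18 points (9 states in both libraries) among 10477 genes with at least 50 UMIs. These correlations are descriptions, and the points share libraries, depths and the split between DCs and other cells. Maf was most like Slc43a2 (Pearson r = 0.98), Aoah (0.97) and Ctsc (0.96), and Spi1 like Dok3 (0.98), Sh3bgrl (0.98) and Daglb (0.97). Irf8 was most like Mycl (0.97), Plxdc1 (0.97) and Polr2c (0.96), and Tcf4 like Dap (0.97), Gimap1 (0.97) and Gm19705 (0.96). Cebpb was nearest to Igsf6, Trem1 and Cyp4f18 (0.96 each), Batf3 to Lrrc45 (0.97), Rtn1 (0.96) and Mettl17 (0.96), and Zbtb46 to Cst3 (0.97), Sri (0.95) and 1810037I17Rik (0.94). The nearest to Id2 were Tmsb4x (0.96), Pvrl1 (0.94) and Cd9 (0.93). For Irf4, on few UMIs, they were Sertad3 (0.89), Lpin2 (0.88) and Heca (0.84).

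The libraries were compared next, for which 1.5-fold either way in a gene with at least 20 UMIs counts as called. Over all gated cells none of the 9 factors passed, while 8.8% of 11599 genes did. Cebpb was at 537 CPM in wt and 672 CPM in cko, a log2 ratio of 0.32 (interval 0.29 to 0.36). Batf3 had a log2 ratio of 0.36 (0.22 to 0.49), Id2 0.29 (0.22 to 0.36) and Maf −0.22 (−0.28 to −0.15). Among 4212 well counted genes 90% lay between −0.17 and 0.26, so these 4 ratios were outside that band. Spi1 (0.06), Irf8 (0.02) and Tcf4 (0.06) were inside it. Irf4 (−0.31) and Zbtb46 (0.48) had intervals that covered 0.

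By state, the Maf ratio was below 0 in 5 of the 6 states with enough UMIs, with all 5 intervals below 0 and none past 1.5-fold. In transitional cells it was at 235 CPM in wt and 180 CPM in cko (log2 −0.38, interval −0.56 to −0.21). In the pooled macrophages the ratio was −0.28 (−0.36 to −0.20). The ACE gate was the exception, with 51.4 and 53.8 CPM. The summed macrophage marker list stood at 2744 (wt) and 4009 (cko) CPM in CD300E macrophages and at 1074 and 1518 CPM in classical monocytes. Its part in the Maf values was not tested.

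The Cebpb ratio was above 0 in all 6 monocyte and macrophage states, each with an interval above 0 and none past 1.5-fold. VCAM1 macrophages had the widest difference, 336 against 501 CPM (log2 0.58, interval 0.41 to 0.74), then transitional cells with 542 against 764 CPM (0.50, 0.40 to 0.59). The granulocytic group had the same direction, 1504 against 2163 CPM (0.52). Of 9 states with enough UMIs only XCR1 DCs pointed lower, on 34 and 15 UMIs with an interval that covers 0. Cebpa, a relative of Cebpb, was at 39.0 and 43.8 CPM in the pooled macrophages, with an interval that covers 0.

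**Figure D3:**
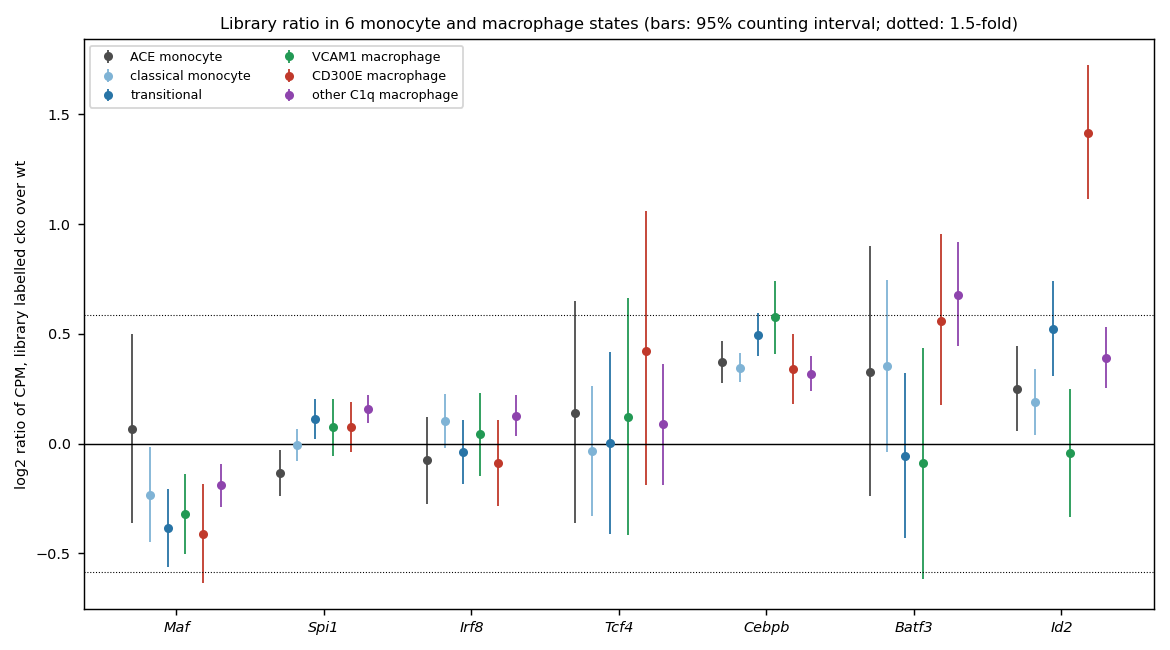
Log2 ratio of CPM, library labelled cko over wt, for 7 factors in 6 monocyte and macrophage states, with 95% counting intervals and dotted lines at 1.5-fold. All 6 Cebpb points lie above 0 and 5 of 6 Maf points below it, while Id2 in CD300E macrophages (1.41) stands above the other points.

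Calls in single states have to be read beside the share of all genes called, which was 17.5% in the ACE gate, 8.61% in classical monocytes, 11.3% in transitional cells and 14.2% in VCAM1 macrophages, where none of 7 factors was called. In CD300E macrophages 1 of 7 (Id2) was called against 14.3% of genes, in the other C1q macrophages 1 of 7 (Batf3) against 9.28%, and in the pooled macrophages 1 of 8 (Batf3, just at the threshold) against 8.46%. Among dendritic states, 1 of 4 was called in pDCs (Cebpb, with a log2 ratio of 1.47 that became 0.26 without the top cell, which ends the call) against 25.7%, 0 of 5 in XCR1 DCs against 23.8%, and 3 of 5 in CCR7 DCs (Cebpb, Batf3 and Id2) against 44.8%. Without the 2 keratin-positive cells CCR7 DCs gave 0 of 4 against 28.8%. Id2 then had a log2 ratio of −0.52 and Batf3 −0.48, in place of −1.10 and −1.06. In the gates chosen after seeing the data, the log2 ratio of Cebpb was 1.70 (interval −0.05 to 4.10) in FLT3 cells and 1.30 (0.71 to 1.90) in MGL2 cells, and that of Maf −1.49 (−3.06 to −0.18) in MGL2 cells on 27 and 6 UMIs.

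Batf3 was at 39.8 CPM in wt and 63.7 CPM in cko in the other C1q macrophages (log2 0.68, interval 0.44 to 0.92). In CD300E macrophages it was at 59.7 and 88.0 CPM (0.56, 0.18 to 0.96), and in VCAM1 macrophages at 44.4 and 41.8 CPM (−0.09). In classical monocytes, 22.3 and 28.5 CPM, the interval covered 0.

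Id2 in CD300E macrophages was at 84.6 CPM in wt, from 112 UMIs in 100 cells, and at 226 CPM in cko, from 500 UMIs in 197 cells. The log2 ratio was 1.41 (interval 1.12 to 1.72). The top cell held 16 of the 112 wt UMIs and 20 of the 500 cko UMIs, and with it left out in each library the ratio was 1.58. With every cell thinned to 3000 UMIs, 21.0% of wt cells (interval 13.5 to 30.3) and 34.0% of cko cells (27.4 to 41.1) held an Id2 UMI, against 50 of 100 and 114 of 197 cells unthinned at median depths of 11780 and 10582 UMIs. In pDCs, which lack Id2, 1 of 18 (wt) and 0 of 20 (cko) thinned cells did. Lymphoid cells express Id2 at 902 and 1083 CPM, and the lymphoid marker list in CD300E cells was at 17.4 CPM in wt and 7.22 CPM in cko.

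A set of 10 immediate-early and heat-shock genes, chosen after seeing the data, was compared between the libraries as well. Such genes respond within minutes, including to tissue digestion. Their summed level was 1384 CPM in wt and 1765 CPM in cko over all gated cells (log2 0.35, above 0 for 10 of 10 genes), and the log2 ratio was 0.46 in the pooled macrophages (10 of 10), 0.41 in transitional cells (8 of 10), 0.36 in the ACE gate (6 of 10) and 0.26 in classical monocytes (8 of 10). In CD300E macrophages Fos had a log2 ratio of 0.78 and Jun of 0.86. Klf2, another rapidly induced gene, had 0.67 in the pooled macrophages.

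The factors were therefore also compared in cells without a Fos or Jun UMI at 3000 UMIs per cell, a choice made after seeing the data, which left 537 wt and 440 cko cells. In those cells Cebpb had a log2 ratio of 0.32 (interval 0.25 to 0.39), with 484 CPM in wt and 604 CPM in cko. It stood at 0.65 (0.44 to 0.86) in transitional cells and 0.37 (0.25 to 0.50) in the pooled macrophages, but at −0.01 (−0.18 to 0.15) in the ACE gate. Id2 came to 0.02 (−0.11 to 0.14) over all gated cells, DCs included, while the states pointed different ways. It was at 0.69 (0.20 to 1.18) in transitional cells and 0.31 (0.08 to 0.54) in the pooled macrophages. In classical monocytes it was at −0.03 (−0.36 to 0.30) and in the ACE gate at −0.58 (−0.93 to −0.23). In 37 and 42 CD300E macrophages it was at 0.21 (−0.30 to 0.72), which ends its call there. Maf was at −0.16 (−0.28 to −0.03) over all gated cells, −0.01 (−0.45 to 0.43) in classical monocytes and −0.65 (−1.05 to −0.26) in transitional cells, which is past 1.5-fold, and Batf3 at 0.20 (−0.05 to 0.44) over all gated cells. In the pooled macrophages Batf3 was at 0.24 (−0.08 to 0.56), which ends its call there, while it was at 1.11 (0.29 to 1.96) in classical monocytes on 21 and 35 UMIs and at 0.76 (0.02 to 1.53) in CD300E macrophages. The part of this response in the ratios was not tested.

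Irf8, at similar levels over the monocyte and macrophage states, varied within them with Cxcl10, an interferon-induced chemokine gene used as the marker of that response after seeing the data. Cells with a Cxcl10 UMI at 3000 UMIs per cell had an Irf8 ratio over cells without of 1.28-fold to 2.36-fold in all 4 groups compared and both libraries. In classical monocytes Irf8 was at 413 CPM in 71 wt cells with Cxcl10 and 213 CPM in 465 without (1.94-fold), and at 427 and 229 CPM in cko (1.86-fold). In the ACE gate the folds were 2.07 and 2.36, in transitional cells 2.00 and 1.28, and in the pooled macrophages 1.44 and 1.45.

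These Irf8 ratios were above 88.6% to 98.3% of genes with at least 200 UMIs in the same cells. Spi1 gave folds of 0.96 to 1.07. Id2 took no common direction, with wt log2 ratios of −0.80 in transitional cells and −0.71 in the ACE gate and cko ratios of 0.37 and 0.95. Median depth differed between the classes in macrophages, 14572 UMIs with Cxcl10 and 10928 without in cko, and its part was not tested.

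**Figure D4:**
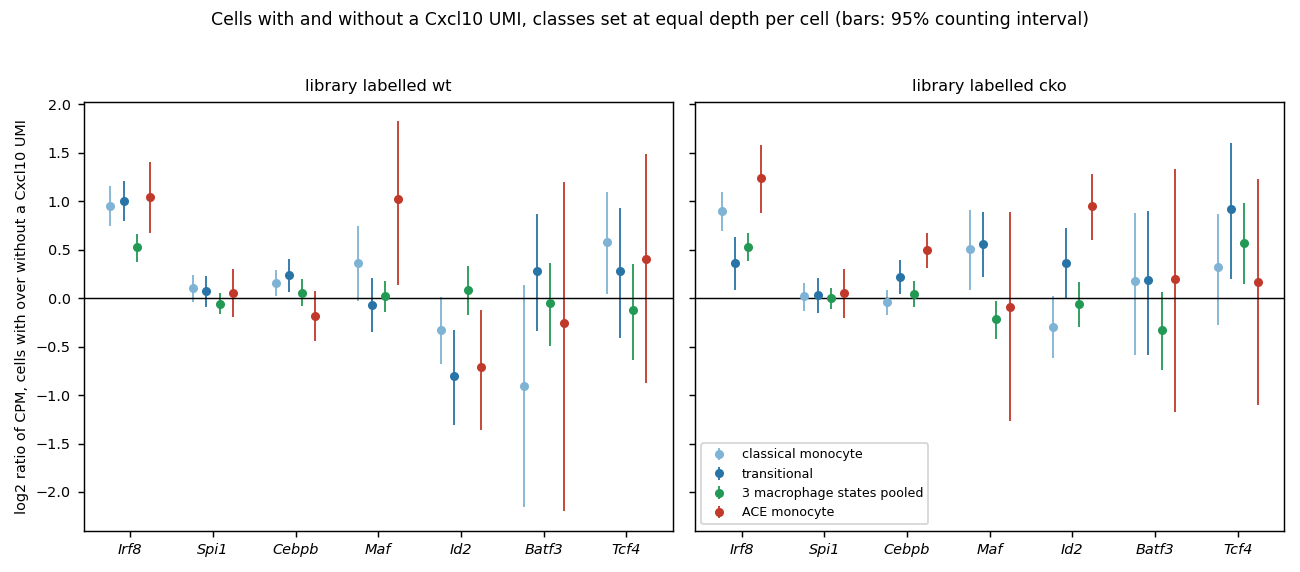
Log2 ratio of CPM between cells with and without a Cxcl10 UMI for 7 factors (cells were classed at 3000 UMIs each, and levels use all their UMIs), left for the library labelled wt and right for cko, with colors for 4 groups of cells and 95% counting intervals. Irf8 lies above 0 in all 8 points and Spi1 near 0 in all 8.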

How the data were processed

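The authors sorted cells from pooled tumors, prepared 10x Genomics Chromium 3′ libraries and deposited raw UMI counts per gene and cell for 2 libraries. The submitters' processing notes name Cell Ranger, Seurat and mm10, with versions not given in the sources used here. Depth ran from 3184 to 159109 UMIs per cell, over 24492486 UMIs (wt) and 27163485 UMIs (cko).

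Filters of 200 genes as the minimum and 10% mitochondrial UMIs as the maximum per cell removed 4 cells (wt) and 14 (cko). C1q-positive means above 6.26 UMIs per 10000, the higher of the libraries' 90th percentiles in lymphoid cells. Most other gates needed 2 UMIs (3 for pDCs), and the granulocytic gate 50 UMIs per 10000. CCR7 DCs could also enter with 1 Ccr7 UMI and 2 Ccl22 UMIs. UMIs were summed by state and library. Levels have exact Poisson intervals, ratios exact conditional binomial intervals and shares Clopper-Pearson intervals, all at 95%. A call needed at least 20 UMIs in the comparison and 1.5-fold (libraries) or 2-fold the same way in both libraries (states), with gate genes left out. A count of 0 was set to a floor of 3 counts. Profiles were compared as log2(CPM + 1). Doublets stayed in the main values and were removed by Scrublet score in an alternative (48 wt and 58 cko cells). Scripts were tested on simulated data and used Python 3.11.15 with numpy 2.4.6, scipy 1.17.1, pandas 2.3.3, scanpy 1.11.5 and matplotlib 3.10.9.

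The 9 factors and all gene lists were chosen with earlier results of these data known. Named were all 9 factors, the 3 most similar profiles of each and up to 4 genes per family list, those with the most UMIs, while further family genes are named for having been called. Alternatives changed the weighting of cells, scaling, depth, gates, UMI minimum and single cells. An item withheld for evaluation is not reported here.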

Additional observations from a re-analysis of the deposited data

Results flagged for a closer look

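Some ratios of cko over wt pointed one way in one state and the other way in another, with intervals that exclude 0. The difference between states was not tested, since each state rests on 1 library per group. Spi1 had a log2 ratio of 0.16 in other C1q macrophages and −0.14 in the ACE gate, where it became 0.024 with cells thinned to 3000 UMIs. Irf8 had 0.33 in XCR1 DCs and −0.33 in pDCs. Batf3 had 0.68 in other C1q macrophages and −1.06 in CCR7 DCs, and Id2 had 1.41 in CD300E macrophages and −1.10 in CCR7 DCs. Without the 2 keratin-positive cells the CCR7 values were −0.48 for Batf3, with an interval of −1.25 to 0.31 that covers 0, and −0.52 for Id2, with an interval of −0.75 to −0.29.

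Cells outside the pDC, CCR7 and XCR1 gates also carried dendritic factors. In the FLT3 cells Zbtb46 was at 50.1 CPM in wt and 38.4 CPM in cko, and Id2 was at 1151 CPM and 1323 CPM. Classical monocytes held at most 0.70 CPM of Zbtb46.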

How the results depend on the processing

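No paired analysis was possible because each group is 1 library, and for the same reason no replicate could be left out. The count of factors called stayed within 1.5 times its main value in 89 of 99 recomputed values. For macrophages over classical monocytes, 2 in the main analysis, it was 1 with equal weight per cell, 1 with cells thinned to 3000 UMIs and 1 with the C1q threshold halved, each time through the loss of Cebpb. For the CD209A cells, 1 in the main analysis, it was 3 when thinned, 3 with dendritic gates at 3 UMIs, 6 with the FLT3 gate and 3 with the MGL2 gate, the last pair chosen after seeing the data. For CCR7 over XCR1 DCs, 0 in the main analysis, it was 1 (Irf8) with the C1q threshold halved and 1 with the top cell of each gene left out. For the ACE gate, 0 in the main analysis, it was 1 (Zbtb46) without a UMI minimum. Spi1 in the ACE gate turned from −0.14 to 0.024 when thinned. Among 566 recomputed library ratios it was the only sign change of a ratio whose interval excluded 0 in the main analysis, and 26 others moved beyond their interval. Ratios with an interval that covers 0 changed sign as well, such as Tcf4 in CD300E macrophages, from 0.42 to as low as −0.54, and Irf8 in the ACE gate, from −0.08 to as high as 0.27. The choice of cells without a Fos or Jun UMI is not among these settings. There Id2 turned from 0.25 to −0.58 in the ACE gate and from 0.19 to −0.03 in classical monocytes. Cebpb in the ACE gate went from 0.37 to −0.01, and Id2 in CD300E macrophages from 1.41 to 0.21. Of 153 recomputed state differences 8 lost their call and none reversed. Irf8 in pDCs lost its call with dendritic gates at 3 UMIs (mean log2 1.14) and without the deepest 2% of cells, and Maf in XCR1 DCs when thinned (−1.28). The causes were not tested beyond these settings. With 14 to 29 cells in the pDC, XCR1 and CCR7 states, a factor at a few UMIs cannot be ordered at this depth.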

Other observations

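In 4 wt cells with mast cell genes, a group chosen after seeing the data, Id2 was at 3244 CPM from 131 UMIs, of which 102 lay in 1 cell. The lymphoid group held Irf8 at 589 (wt) and 570 (cko) CPM, and its Batf3 level was 25.7 and 9.15 CPM on 55 and 22 UMIs. The granulocytic group held Cebpb at 1504 and 2163 CPM.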
